A study of Mus musculus with 8 samples.

Results

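Transcript levels of 9 fibroblast growth factor (FGF) pathway genes were measured in mouse embryonic stem (ES) cells on Affymetrix arrays. The genes were the ligands Fgf4, Fgf5, Fgf8 and Fgf15, the receptors Fgfr1 and Fgfr2, and the feedback genes Spry2, Spry4 and Dusp6. They are 9 of the 18194 genes that the array platform's annotation names with a single symbol, and they were read by 21 of its 45101 probe sets, taken wherever that symbol was a member's. A probe set is a group of short oligonucleotides on the array that together give a single intensity, on a linear scale.

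The 8 arrays formed 4 groups of 2. Rbp2f/f ES cells, whose Rbp2 alleles are floxed, were cultured in medium containing leukemia inhibitory factor (LIF), a cytokine that holds mouse ES cells undifferentiated, or for 6 days without it. Rbp2-/- ES cells, which lack Rbp2, were grown in the same 2 media. The gene meant by Rbp2 was taken to be Kdm5a (retinoblastoma-binding protein 2), which encodes an enzyme that removes methyl groups from histone H3 lysine 4. The labels call the arrays of a group biological replicates and name no culture or clone, so the p-values measure only the spread between these samples, which may in part be technical.

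FGF ligands bind receptor tyrosine kinases on the cell surface together with heparan sulphate, and the receptors pass the signal through RAS to the kinase ERK. ERK in turn raises transcription of its own inhibitors, among them the Sprouty proteins and the phosphatase DUSP6. In mouse ES cells FGF4 is the main ligand made by the cells themselves, and ERK activity prepares them to leave the undifferentiated state, which LIF opposes.

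The intensities given below were quantile-normalised, because replicate 2 of Rbp2-/- with LIF had been deposited at 65.5% of the mean of the other arrays. Across genes, the correlation between the arrays of a group was 0.958 to 0.982. With LIF, the Kdm5a intensities were 34.1 and 43.5 in Rbp2-/- and 134.1 and 167.7 in Rbp2f/f, and without LIF they were 95 and 66.8 in Rbp2-/- and 209.6 and 224.9 in Rbp2f/f, so the arrays did not overlap in either medium. Averaged over media the log2 difference was -1.44 ± 0.15 (SE, limma, adjusted p = 0.026). In single media it did not pass, at -1.60 with LIF and -1.28 without (limma, adjusted p = 0.071 and 0.11). On withdrawal Kdm5a intensity rose in Rbp2-/- by 0.81 ± 0.22 (limma, adjusted p = 0.035). All 9 pluripotency markers tested, Pou5f1 and Nanog among them, fell on withdrawal in both genotypes. Their summed intensity was 10648 to 14717 with LIF and 1332 to 2476 without. In Rbp2f/f 4 of 5 primitive streak and 5 of 5 extraembryonic endoderm markers tested rose on withdrawal. So did 4 of 5 trophoblast and 4 of 6 feeder fibroblast markers tested. In Rbp2-/- 1, 4, 2 and 2 of these rose. Of all genes 14.0% rose and 13.2% fell in Rbp2f/f, and 7.28% and 8.24% in Rbp2-/-. The 4 lists held 6, 7, 6 and 8 markers. Those left out were too dim to be tested, except for a primitive streak marker that was not measured. Of 2 neural progenitor markers tested, from a list of 5, 1 fell in each genotype. The part of these cell types in the changes of the FGF genes was not tested. In bulk RNA, fewer cells of a type and less RNA per cell cannot be told apart.

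The 250 bases upstream of the annotated start were held for 5 of the 9 genes in a RefSeq table of build GRCm38.p6. Those of Fgf4 and Spry2 are shown because these genes fell on withdrawal in both genotypes. That of Fgf5 is shown because its Rbp2-/- arrays were all lower in both media. Those of Fgfr2, whose arrays also split by genotype but in opposite directions, and Dusp6 are not shown. Each stretch shown is written 5′ to 3′ on the gene's own strand, from 250 bases before the start to the base before it. Capitals mark matches on either strand to the motifs searched.
Fgf4: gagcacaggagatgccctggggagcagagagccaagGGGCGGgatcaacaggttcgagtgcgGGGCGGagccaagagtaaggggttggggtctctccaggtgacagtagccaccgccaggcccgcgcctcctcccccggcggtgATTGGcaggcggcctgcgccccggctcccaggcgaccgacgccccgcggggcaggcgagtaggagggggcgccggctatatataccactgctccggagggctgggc
Fgf5: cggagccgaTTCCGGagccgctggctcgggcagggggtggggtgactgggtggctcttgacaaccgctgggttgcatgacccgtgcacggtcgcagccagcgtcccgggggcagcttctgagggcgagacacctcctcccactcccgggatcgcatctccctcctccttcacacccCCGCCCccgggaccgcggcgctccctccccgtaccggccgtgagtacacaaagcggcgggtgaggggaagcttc
Spry2: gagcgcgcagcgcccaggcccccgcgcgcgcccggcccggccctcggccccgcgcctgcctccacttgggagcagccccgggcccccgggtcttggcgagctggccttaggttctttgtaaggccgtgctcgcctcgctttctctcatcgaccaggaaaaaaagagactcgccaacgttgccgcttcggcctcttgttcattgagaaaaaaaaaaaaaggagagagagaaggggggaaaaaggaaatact
The Fgf4 stretch lies on the plus strand at chr7:144861136-144861385, the Fgf5 stretch on the plus strand at chr5:98253934-98254183 and the Spry2 stretch on the minus strand at chr14:105896820-105897069. The motifs were the GC box GGGCGG, the CCAAT box, the TATA box TATAAA, the ETS core CCGGAA and the STAT motif TTCNNNGAA. The Fgf4 stretch held 2 GC boxes, at -214 and -188 from the start, and a CCAAT box at -106. The Fgf5 stretch held a GC box at -74 and an ETS core at -241, and the Spry2 stretch held none of the 5 motifs. Among all 32851 promoters of that table, windows of this length held the GC box in 32.7%, the CCAAT box in 33.8%, the TATA box in 12.4%, the ETS core in 12.0% and the STAT motif in 7.0%. Their median GC content was 52.4%, against 71.2% for Fgf4, 70.8% for Fgf5 and 62.4% for Spry2, and 44.0% and 56.4% for Fgfr2 and Dusp6. These matches are descriptions of the letters only.

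Withdrawal of LIF was the comparison in which FGF genes changed. In Rbp2f/f cells 5 of the 9 passed the test (limma, adjusted p under 0.05), with Fgf8 and Fgfr1 higher and Fgf4, Spry2 and Spry4 lower. In that comparison 27.2% of the 10916 genes tested passed, 14.0% higher and 13.2% lower. The 9 genes were chosen with earlier results of these data known, so such shares are descriptions only. In Rbp2-/- cells 4 of the 9 passed, with Fgf15 higher and Fgf4, Spry2 and Spry4 lower, against 15.5% of all genes, 7.28% higher and 8.24% lower. On the values as deposited, where the median change of all genes was shifted by 0.39 in Rbp2-/-, 4 passed as higher and 2 as lower there, and after median centring 2 and 3. The arrays of the 2 media did not overlap for 3 genes higher and 4 lower in Rbp2f/f, against 33.3% and 35.3% of all genes. In Rbp2-/- they did not overlap for 4 higher and 3 lower, against 28.9% and 29.8%. All 9 genes passed the filter on low values, but Fgf5 in Rbp2-/- with LIF, Fgf8 in Rbp2f/f with LIF and Fgf15 in both groups with LIF had mean intensities under its level of 28.3.

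**Figure D1:**
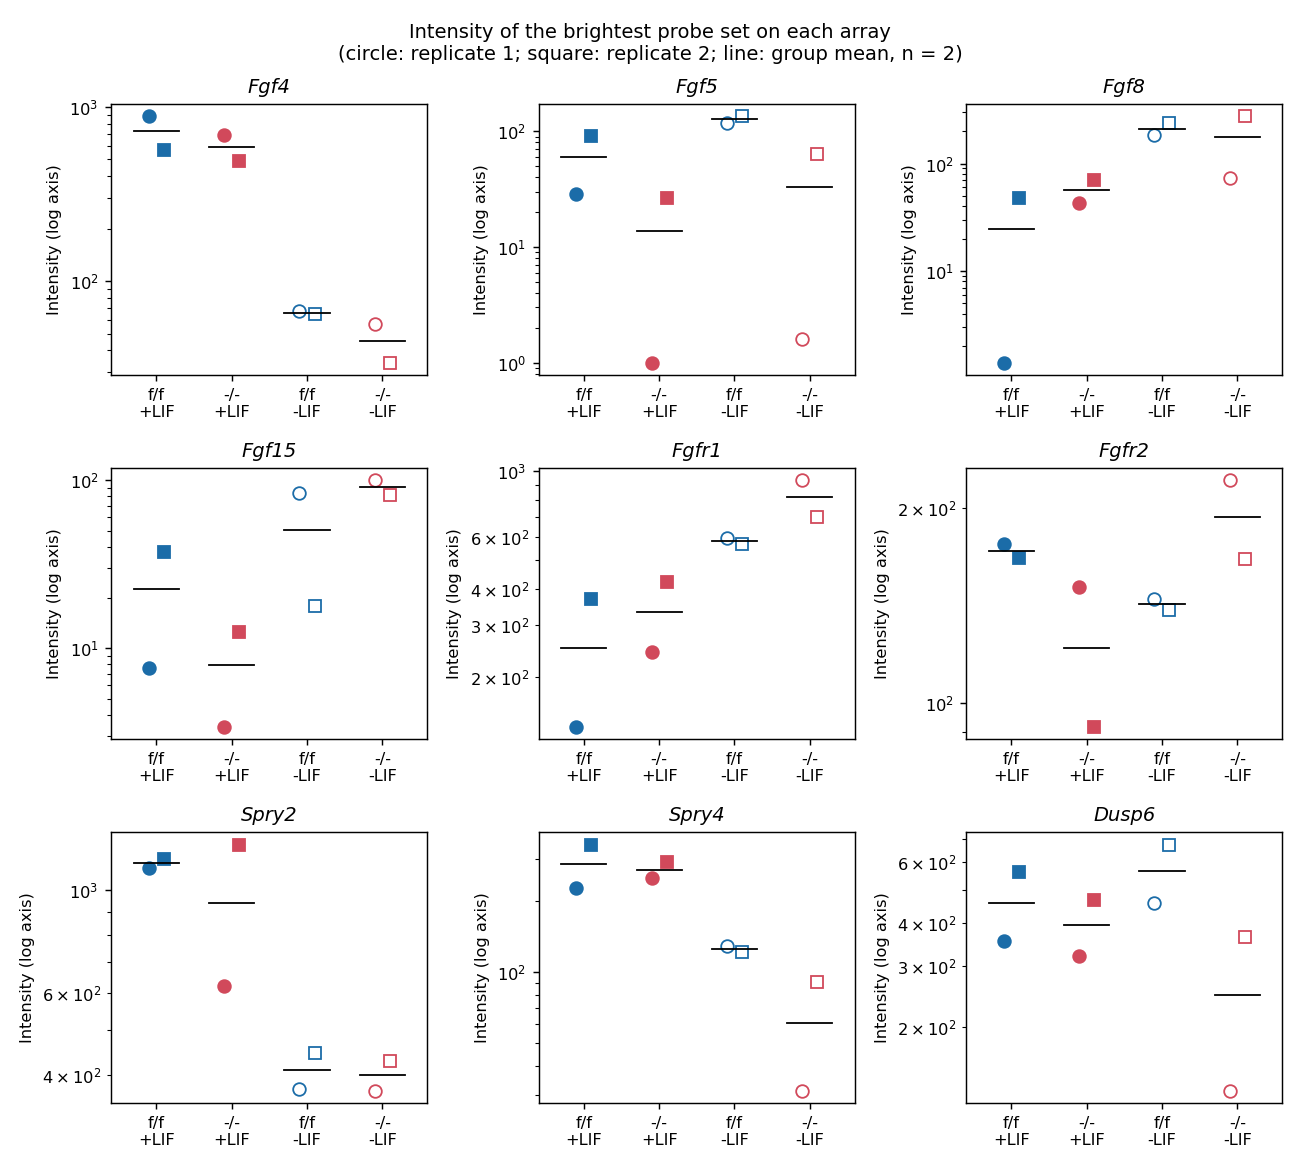
Quantile-normalised intensity (log axis) of the brightest probe set of each of the 9 genes on every array, by genotype and medium; points are arrays (circles replicate 1, squares replicate 2) and lines are the means of 2 arrays. Fgf4 lay at 487.7 to 887.7 on the 4 arrays with LIF and at 34.1 to 67.1 on the 4 without, while Fgf5 was at 1 to 1.6 on 1 Rbp2-/- array of each medium.

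Fgf4, the ligand that drives autocrine ERK signalling in ES cells, showed the largest log2 change of the 9 genes in either genotype in the main fit. In Rbp2f/f its intensity was 887.7 and 563.5 with LIF and 67.1 and 64.8 without. In Rbp2-/- its intensity was 689 and 487.7 with LIF and 56.4 and 34.1 without. Every array without LIF lay far below every array with it, and withdrawal left 9.09% of the mean in Rbp2f/f and 7.69% in Rbp2-/-. The log2 change was -3.14 ± 0.28 (SE, adjusted p = 0.00022) in Rbp2f/f and -3.31 ± 0.28 (adjusted p = 0.00017) in Rbp2-/-. All log2 values are of intensity + 16, which understates the change of dim genes, except in settings that changed this offset. Both Fgf4 changes passed in all 21 alternative settings. Over these settings the change of Fgf8 in Rbp2f/f reached 4.28, while that of Fgf4 there went no lower than -3.45. The rank of Fgf4 in Rbp2f/f thus depended on the setting. The 4 Fgf4 probe sets were lower without LIF on non-overlapping arrays in both genotypes. Tested among all probe sets, the next brightest passed in both (limma, adjusted p = 0.00034 and 0.00036), at 12.3-fold in Rbp2f/f. The third, 2.59-fold lower there, did not pass in Rbp2f/f or Rbp2-/- (limma, adjusted p = 0.11 and 0.058). The dimmest was too dim to be tested. On the brightest probe set the arrays of the genotypes overlapped with LIF, at a log2 difference of -0.28 (95% interval -0.90 to 0.34). Without LIF both Rbp2-/- arrays were below both Rbp2f/f arrays, at -0.44 (-1.07 to 0.18), and neither difference passed.

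Fgf5, a ligand known as a marker of the primed epiblast, had lower values in Rbp2-/- than in Rbp2f/f in each medium, a difference that did not pass the test. In Rbp2f/f it read 28.4 and 91.8 with LIF and 117.5 and 135.4 without. In Rbp2-/- it read 1 and 26.5 with LIF and 1.6 and 64 without. Every Rbp2-/- array was below every Rbp2f/f array of the same medium, and replicate 1 was near the bottom of the scale in both Rbp2-/- groups. The log2 difference between genotypes was -1.37 ± 0.70 with LIF (adjusted p = 0.43) and -1.92 ± 0.70 without (95% interval -3.49 to -0.36, adjusted p = 0.26). Averaged over media it was -1.64 ± 0.49 (limma, unadjusted p = 0.0082, adjusted p = 0.15). Withdrawal gave 1.04 ± 0.70 in Rbp2f/f (adjusted p = 0.29), where the arrays did not overlap, and 0.48 ± 0.70 in Rbp2-/- (adjusted p = 0.69), where they did. In Rbp2-/- the sign turned without replicate 1 of the group with LIF (-0.18) or replicate 2 of the group without (-0.60). The Rbp2-/- mean with LIF, 13.8, was under the filter level of 28.3. The other Fgf5 probe set was too dim to be tested.

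Fgf8, a ligand made in the primitive streak of the gastrulating embryo, rose in Rbp2f/f cells. It read 1.4 and 48 with LIF and 185.2 and 238.3 without, a log2 change of 2.76 ± 0.64 (adjusted p = 0.013). The mean without LIF was 7.48 times the filter level, which the mean with LIF did not reach, so no fold between the means is given. Replicate 1 with LIF was very dim, and without it the change was 1.83 (adjusted p = 0.08). When replicate 2 of the Rbp2f/f arrays without LIF was dropped, the change was 2.58 (adjusted p = 0.086). In Rbp2-/- cells Fgf8 read 42.8 and 70.7 with LIF and 72.6 and 277.5 without. These groups only just failed to overlap, and the change of 1.17 ± 0.64 did not pass (adjusted p = 0.24). The difference between the 2 withdrawal changes was -1.59 ± 0.90 (adjusted p = 0.53). The primitive streak markers, Mixl1 among them, summed to 145 to 474 on the arrays with LIF, to 1254 and 1656 in Rbp2f/f without LIF, and to 428 and 2162 in Rbp2-/- without LIF. The Rbp2-/- array low in Fgf8 was the one low in these markers, and their part in the result was not tested.

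Fgf15, the mouse counterpart of human FGF19 and a ligand of the developing neural tube and gut, rose in Rbp2-/- cells. It read 3.4 and 12.4 with LIF and 99.9 and 81.7 without, a log2 change of 2.18 ± 0.52 (adjusted p = 0.023). Both arrays with LIF were under the filter level and the mean without LIF was 3.21 times it, so the gene entered the test through the groups without LIF and no fold is given. The call was lost without replicate 1 of Rbp2-/- with LIF (1.91, adjusted p = 0.11), and without replicate 1 (2.05, adjusted p = 0.13) or replicate 2 (2.28, adjusted p = 0.073) of Rbp2-/- without LIF. In Rbp2f/f cells the arrays overlapped, at 7.6 and 37.2 with LIF and 83.9 and 17.8 without. That change was 0.71 ± 0.52 (adjusted p = 0.34), and -0.065 when replicate 1 of Rbp2f/f without LIF was left out. The 2 genotypes' changes differed by 1.47 ± 0.74 (adjusted p = 0.50), so a difference between them was not shown.

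Fgfr1, the main FGF receptor of the epiblast, was higher on all arrays without LIF than on all arrays with it. In Rbp2f/f it read 135.5 and 368.5 with LIF and 595.9 and 568.3 without, a rise of 2.31-fold and 1.31 ± 0.40 on the log2 scale (adjusted p = 0.038). The call was lost without replicate 1 of Rbp2f/f with LIF, where the change was 0.63 (adjusted p = 0.21), and without either array of Rbp2f/f without LIF (1.28 and 1.35, adjusted p = 0.13 and 0.14). In Rbp2-/- it read 244.2 and 419.6 with LIF and 933.4 and 698.7 without. This change was 2.46-fold and 1.29 ± 0.40 (adjusted p = 0.058), and it passed in 9 of the 21 alternative settings. The next brightest Fgfr1 probe set, tested among all probe sets, rose by 0.64 ± 0.19 in Rbp2f/f (adjusted p = 0.045) and by 1.11 ± 0.19 in Rbp2-/- (adjusted p = 0.0082). The dimmest read 0.37 and 0.36 and did not pass in either genotype.

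Fgfr2, a receptor prominent in primitive endoderm and trophoblast, had group means that spanned only 0.63 on the log2 scale, the narrowest range of the 9 genes. In Rbp2f/f it read 176.2 and 167.3 with LIF and 144.6 and 139.2 without. In Rbp2-/- it read 151.2 and 91.8 with LIF and 220.7 and 166.7 without. Both Rbp2f/f arrays without LIF were below those with it, and both Rbp2-/- arrays without LIF were above those with it. The changes were -0.25 ± 0.24 (adjusted p = 0.47) and 0.63 ± 0.24 (adjusted p = 0.11). Their difference was 0.88 ± 0.34 (limma, unadjusted p = 0.027, adjusted p = 0.42). With single arrays left out, the change in Rbp2-/- ran from 0.31 to 0.94, the latter without replicate 1 of Rbp2-/- with LIF. A second Fgfr2 probe set gave 0.08 in Rbp2f/f and 0.68 in Rbp2-/- (limma, adjusted p = 0.88 and 0.17). The dimmest Fgfr2 probe set, too dim to be tested, was higher without LIF on non-overlapping arrays in both genotypes.

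Spry2, a Sprouty protein that restrains receptor signalling to ERK, fell in both genotypes. In Rbp2f/f it read 1118.7 and 1167.2 with LIF and 372.8 and 445.6 without. The mean was 2.79-fold lower and the log2 change -1.45 ± 0.28 (adjusted p = 0.0067), and it passed in all 21 alternative settings. In Rbp2-/- it read 622.1 and 1255.6 with LIF and 369.4 and 429.9 without. The groups did not overlap, and the change of 2.35-fold, or -1.12 ± 0.28, passed at adjusted p = 0.028. It no longer passed without replicate 2 of Rbp2-/- with LIF (-0.62, adjusted p = 0.075), or without replicate 1 (-1.01, adjusted p = 0.16) or replicate 2 (-1.23, adjusted p = 0.073) of Rbp2-/- without LIF. With the values as deposited its adjusted p was 0.064 (limma), and with all probe sets averaged 0.14. It passed in 13 of the 21 alternative settings. The genotype difference was -0.36 with LIF (95% interval -1.0 to 0.28) and -0.03 without (-0.67 to 0.61). The other Spry2 probe set was too dim to be tested, and its arrays overlapped between media in both genotypes.

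Spry4, a second Sprouty inhibitor, also fell in both genotypes. In Rbp2-/- it read 249 and 292.3 with LIF and 31.3 and 90.6 without, 4.44-fold lower, with a log2 change of -2.01 ± 0.35 (adjusted p = 0.0059) that passed in all 21 alternative settings. In Rbp2f/f it read 227 and 345.3 with LIF and 129 and 121.5 without, 2.28-fold lower, at -1.07 ± 0.35 (adjusted p = 0.048). The arrays with and without LIF did not overlap in either genotype. The Rbp2f/f call was at the threshold and passed in only 8 of 21 settings. It was lost without any single array other than those of Rbp2-/- without LIF, at changes from -1.35 to -0.78 and adjusted p from 0.055 to 0.22. With the values as deposited its adjusted p was 0.078. Of the 4 Spry4 probe sets, 3 were lower without LIF on non-overlapping arrays in both genotypes, and the dimmest was so in Rbp2-/- only. On the brightest probe set the Rbp2-/- arrays without LIF lay below the Rbp2f/f arrays, at -0.99 ± 0.35 (limma, 95% interval -1.77 to -0.21, adjusted p = 0.25). With LIF its difference was -0.05 ± 0.35 (adjusted p = 0.96). Its withdrawal changes differed by -0.94 ± 0.49 (adjusted p = 0.51). On the other probe sets the arrays of the genotypes overlapped without LIF, at differences of -0.66, -0.20 and 0.06.

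Dusp6, the phosphatase that inactivates ERK in the cytoplasm, did not pass in any comparison. In Rbp2f/f its intensities were 354.9 and 560.7 with LIF and 457.2 and 674.8 without. In Rbp2-/- they were 321.9 and 466.6 with LIF and 130.9 and 364.9 without. The ranges overlapped between media in both genotypes, at changes of 0.31 ± 0.42 (adjusted p = 0.63) and -0.77 ± 0.42 (adjusted p = 0.25). In Rbp2-/- the change was -1.47 (adjusted p = 0.042) without replicate 2 of the group without LIF and -0.08 (adjusted p = 0.93) without its replicate 1. Without LIF both Rbp2-/- arrays lay below both Rbp2f/f arrays, at -1.27 ± 0.42 (95% interval -2.22 to -0.32, adjusted p = 0.23).

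The 2 arrays of Rbp2-/- without LIF differed for several genes, with replicate 1 lower than replicate 2 in Fgf5, Fgf8, Spry4 and Dusp6 and higher in Fgf4. In replicate 1 the feeder fibroblast markers summed to 3558, against 1174 in replicate 2 and 1463 and 1372 in Rbp2f/f without LIF. Most of this was the collagen gene Col1a1, at 2766.2 against 638.7 in replicate 2. Without Col1a1 the list summed to 792 and 535, below the 969 and 870 of Rbp2f/f. Its members went both ways. In replicate 1 Col1a2 (392.7) and Pdgfra (73.9) were higher than on any other array. Col3a1 read 139.5 and 151.8 against 390.4 and 415.5 in Rbp2f/f. Thy1, Lum and Dcn in replicate 1 were also below both Rbp2f/f arrays without LIF, and Postn lay between them. The pluripotency markers summed to 1332 against 2267, most of the gap being Tdgf1 (165.3 against 895.9). Without Tdgf1 they summed to 1167 and 1371. Nanog, Zfp42 and Esrrb were higher in replicate 1. Pou5f1 (230 against 364.5), Utf1 (184.8 against 311.7), Sox2, Klf4 and Tfcp2l1 were lower in it. No marker of these lists was at 0. Their part in the values of the FGF genes was not tested.

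**Figure D2:**
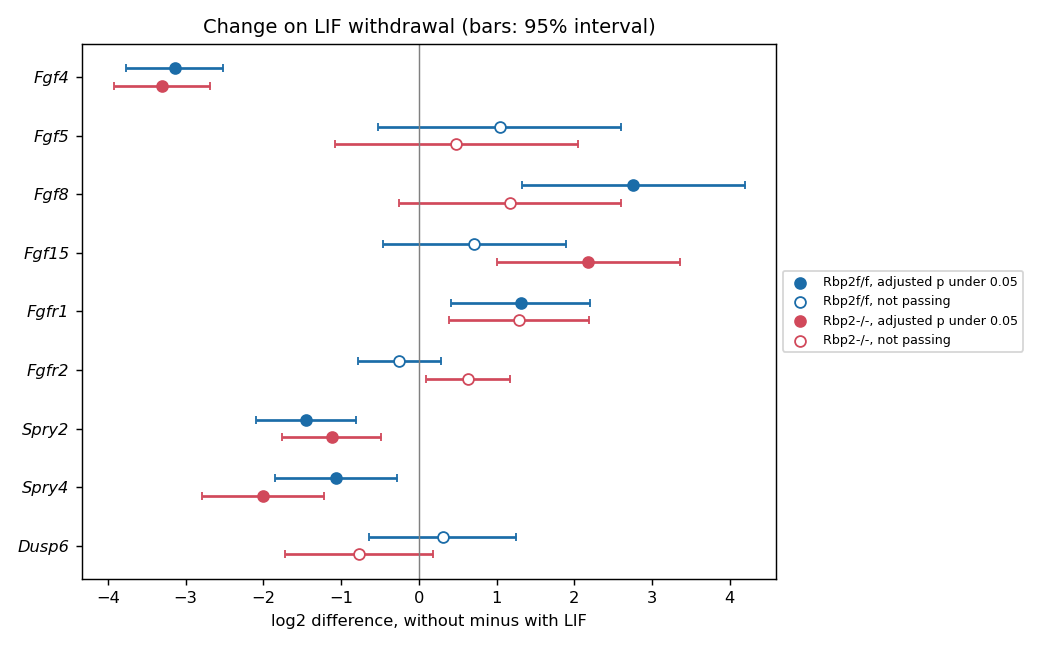
Log2 change on LIF withdrawal (horizontal axis) for each of the 9 genes in each genotype, with 95% intervals from limma; filled points passed at adjusted p under 0.05. Fgf4 stood lowest in both genotypes, at -3.14 and -3.31, and Spry2 and Spry4 were below 0 in both.

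**Figure D3:**
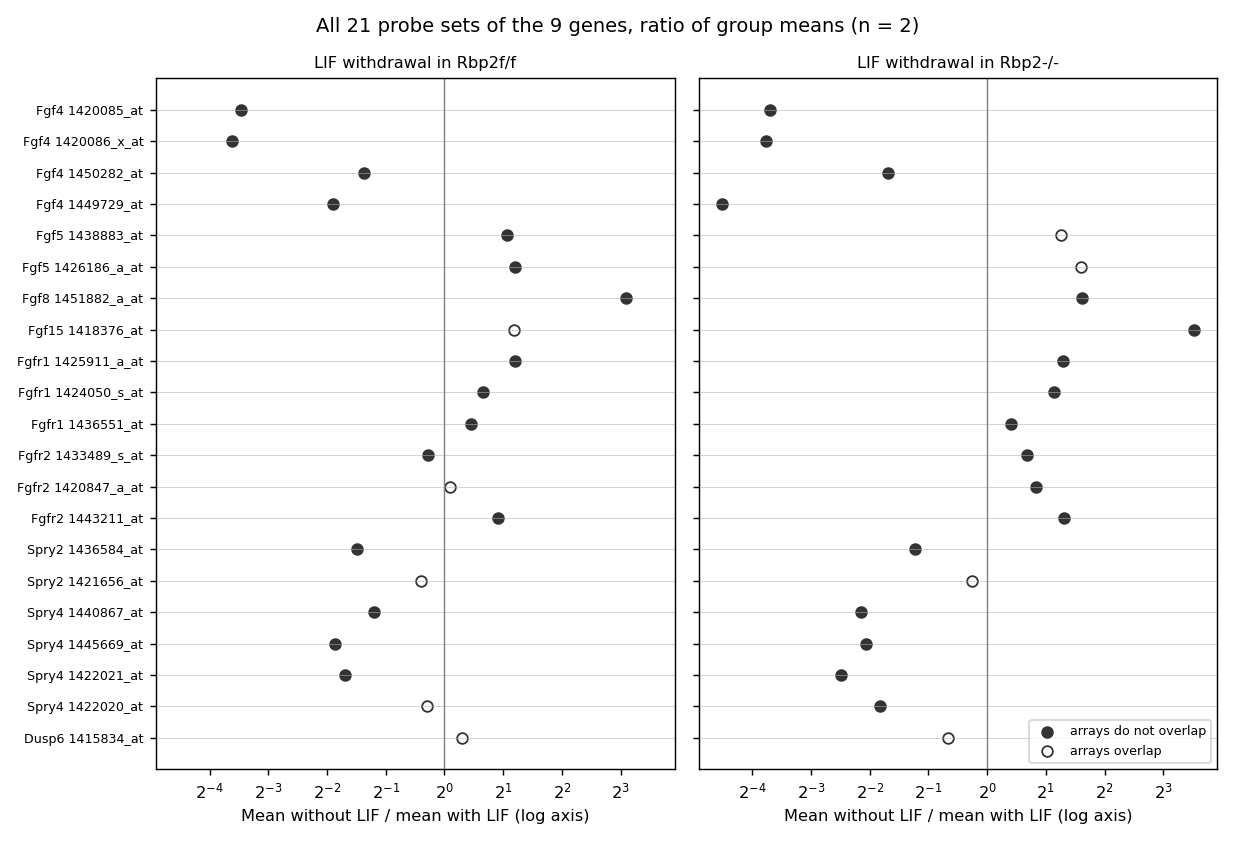
Ratio of the mean intensity without LIF to that with LIF (log axis) for all 21 probe sets of the 9 genes, in each genotype; filled points are probe sets whose arrays did not overlap between media. All 4 Fgf4 probe sets lay to the left and all 3 Fgfr1 probe sets to the right of equality in both genotypes.

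Loss of Rbp2 gave no call among the 9 genes in either medium. With LIF 0 of 9 passed, against 0% of all genes (limma), and 0 of 9 reached an unadjusted p under 0.05, against 1431 of all 10916 genes. Fgf5 and Fgfr2 were the 2 genes whose Rbp2-/- arrays were all lower, and 0 had arrays all higher. Among all genes 21.5% were so lower and 18.6% so higher. Without LIF 0 of 9 passed against 0%, and 3 of 9 (Fgf5, Spry4 and Dusp6, all lower in Rbp2-/-) reached an unadjusted p under 0.05, against 1553 of all genes. Read by brightest probe set, Fgf4, Fgf5, Spry4 and Dusp6 had all Rbp2-/- arrays lower, and Fgfr1 and Fgfr2 had all higher. Among all genes 29.1% were so lower and 26.1% so higher. Averaged over media 0 of 9 passed against 0.137% of all genes. Fgf5 and Dusp6 reached an unadjusted p under 0.05 there (limma), as did 1822 of all genes. The median genotype difference of the 9 genes was -0.28 with LIF and -0.44 without, while that of all genes was -0.01 in both media. For the difference between the genotypes' withdrawal changes 0 of 9 passed against 0%, and Fgfr2 reached an unadjusted p under 0.05, as did 1214 of all genes.

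**Figure D4:**
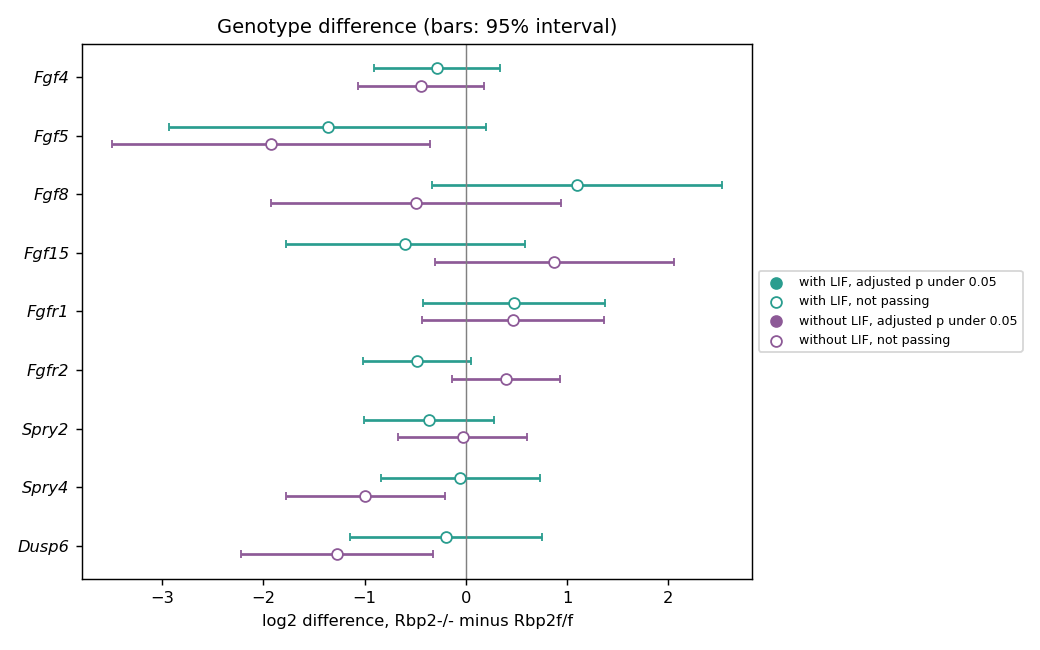
Log2 difference between Rbp2-/- and Rbp2f/f (horizontal axis; values below 0 are lower in Rbp2-/-) for each of the 9 genes with and without LIF, with 95% intervals from limma. No point passed at adjusted p under 0.05, and the intervals of Fgf5, Spry4 and Dusp6 without LIF lay below 0.

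Other genes of the pathway were followed in 5 lists, chosen with earlier results of these data known. Their shares beside those of all genes are thus descriptions and not a test of the pathway. The lists had 89 members. Of these 64 were tested, 16 were below the filter and 9 had no probe set with that single symbol. In Rbp2f/f 18 of the 64 (28.1%) rose on withdrawal, against 14.0% of all genes, and 7 (10.9%) fell, against 13.2%. Their median change was 0.44 against -0.02 for all genes. The count that rose was 4 without replicate 2 and 7 without replicate 1 of Rbp2f/f without LIF, while 3 and 2 fell. With replicate 1 of the Rbp2f/f group given LIF left out, 9 rose and 3 fell. In Rbp2-/- 9 (14.1%) rose, against 7.28% of all genes, and 8 (12.5%) fell, against 8.24%, with a median of 0.04 against 0.00094. On the values as deposited, where 65 were tested, 18 rose and 5 fell there, and after median centring 11 and 6. Without replicate 1 of Rbp2-/- without LIF 6 rose and 3 fell, and 6 rose without either array of Rbp2f/f without LIF. Without either array of Rbp2-/- with LIF 5 fell. Of the 64, 0 passed in any genotype comparison or in the difference of withdrawal changes (limma). An unadjusted p under 0.05 was reached by 9 with LIF, 19 without LIF, 20 averaged and 14 in the difference. Among all 10916 genes 1431, 1553, 1822 and 1214 reached it.

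Among 5 other FGF ligands tested, Fgf3 rose in Rbp2-/- (1.84 ± 0.37, adjusted p = 0.011) and Fgf17 fell in Rbp2f/f (-1.48 ± 0.31, adjusted p = 0.0088). Both entered the test through the medium in which they were high: Fgf3 means with LIF (18.6 and 22.4) and Fgf17 means without LIF (22.3 and 25.1) were under the filter level of 28.3. The Fgf17 call was lost without replicate 2 of Rbp2f/f with LIF (-1.15, adjusted p = 0.054) or replicate 1 of Rbp2f/f without LIF (-1.10, adjusted p = 0.067). Of 17 other receptors, coreceptors and heparan sulphate genes, 9 (52.9%) rose and 2 (11.8%) fell in Rbp2f/f, against 14.0% and 13.2% of all genes. With either array of Rbp2f/f without LIF left out, or replicate 1 of that genotype with LIF, 4 rose and 0 fell. With its replicate 2 with LIF left out 6 rose and 1 fell, and 1 fell when either array of Rbp2-/- without LIF was left out. In Rbp2-/- 4 (23.5%) rose and 1 (5.88%) fell, against 7.28% and 8.24%, and 2 rose without replicate 1 of Rbp2-/- with LIF or any single array without LIF. There 0 fell without replicate 1 of Rbp2-/- without LIF and 2 without its replicate 2. The glypican Gpc3, a heparan sulphate proteoglycan of the cell surface, rose by 2.96 ± 0.25 in Rbp2f/f (adjusted p = 0.00018) and by 2.50 ± 0.25 in Rbp2-/- (adjusted p = 0.00037). Gpc6, another glypican, rose by 1.53 ± 0.19 (adjusted p = 0.00095) and 1.46 ± 0.19 (adjusted p = 0.0014). The syndecan Sdc4, also a surface proteoglycan, fell by 1.33 and 1.61 (adjusted p = 0.023 and 0.016). In Rbp2f/f the call was lost without replicate 1 of the group with LIF (adjusted p = 0.09) or either array of the group without (0.14 and 0.056). In Rbp2-/- it was lost without replicate 1 of the group without LIF (adjusted p = 0.11).

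Of 15 genes that relay the signal from receptor to ERK, 3 (20%) rose and 1 (6.67%) fell in each genotype, against 14.0% and 13.2% of all genes in Rbp2f/f and 7.28% and 8.24% in Rbp2-/-. In Rbp2f/f 1 rose without replicate 1 of the group with LIF or replicate 1 of the group without, and 0 without replicate 2 of the latter. The count in Rbp2f/f was thus near that of all genes. The gene that fell in both was Gab1, an adaptor for receptor tyrosine kinases, at -1.57 ± 0.21 in Rbp2f/f (adjusted p = 0.0014) and -1.95 ± 0.21 in Rbp2-/- (adjusted p = 6e-04). The kinase gene Braf rose in both, by 0.76 ± 0.21 (adjusted p = 0.026) and 1.90 ± 0.21 (adjusted p = 0.00067). Of 15 other feedback inhibitors, 4 (26.7%) rose and 0 fell in Rbp2f/f, against 14.0% and 13.2% of all genes. Of these rises 0 were left without either array of Rbp2f/f without LIF, and 1 was left when replicate 1 of that genotype with LIF was dropped. In Rbp2-/- 1 rose and 1 fell, each 6.67%, against 7.28% and 8.24%, and 0 fell without replicate 2 of Rbp2-/- with LIF or replicate 1 of Rbp2-/- without. Dusp9, a phosphatase of the same family as Dusp6, rose by 0.81 ± 0.19 in Rbp2f/f (adjusted p = 0.014) and by 1.27 ± 0.19 in Rbp2-/- (adjusted p = 0.0027). Spry1, another Sprouty gene, rose by 0.80 ± 0.26 in Rbp2f/f (adjusted p = 0.045), where Spry2 and Spry4 fell. Of 12 genes known to respond to ERK, 2 (16.7%) rose and 3 (25%) fell in Rbp2f/f, against 14.0% and 13.2% of all genes. The rises were 0 without replicate 2 of either Rbp2f/f group, and the falls 1 when either array of Rbp2f/f without LIF, or replicate 1 of that genotype with LIF, was left out. In Rbp2-/- 0 rose and 5 (41.7%) fell, against 7.28% and 8.24%. The falls were 2 without replicate 1 of either Rbp2-/- group, and 3 without replicate 2 of Rbp2-/- with LIF.

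The ETS factor genes Etv4 and Etv5, long used as readouts of FGF signalling, fell in both genotypes. Etv5 changed by -1.82 ± 0.32 in Rbp2f/f (adjusted p = 0.0044) and -2.35 ± 0.32 in Rbp2-/- (adjusted p = 0.0018). Etv4 changed by -1.04 ± 0.27 (adjusted p = 0.019) and -2.61 ± 0.27 (adjusted p = 0.00045). The changes of Etv5, Gpc3, Gpc6 and Gab1 passed without any single array in both genotypes, and so did those of Etv4, Braf, Dusp9 and Fgf3 in Rbp2-/-. In Rbp2f/f those of Etv4, Braf and Dusp9 no longer passed without either array of Rbp2f/f without LIF, with adjusted p from 0.052 to 0.15. They were also lost without replicate 1 (Etv4 and Braf, adjusted p = 0.12 and 0.14) or replicate 2 (Dusp9, 0.068) of Rbp2f/f with LIF. The Spry1 call was lost in 5 of 8 such fits, with changes from 0.50 to 0.91 and adjusted p up to 0.24. Of the 36 pathway calls named by the rule, 22 were lost without 1 or more arrays.

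**Figure D5:**
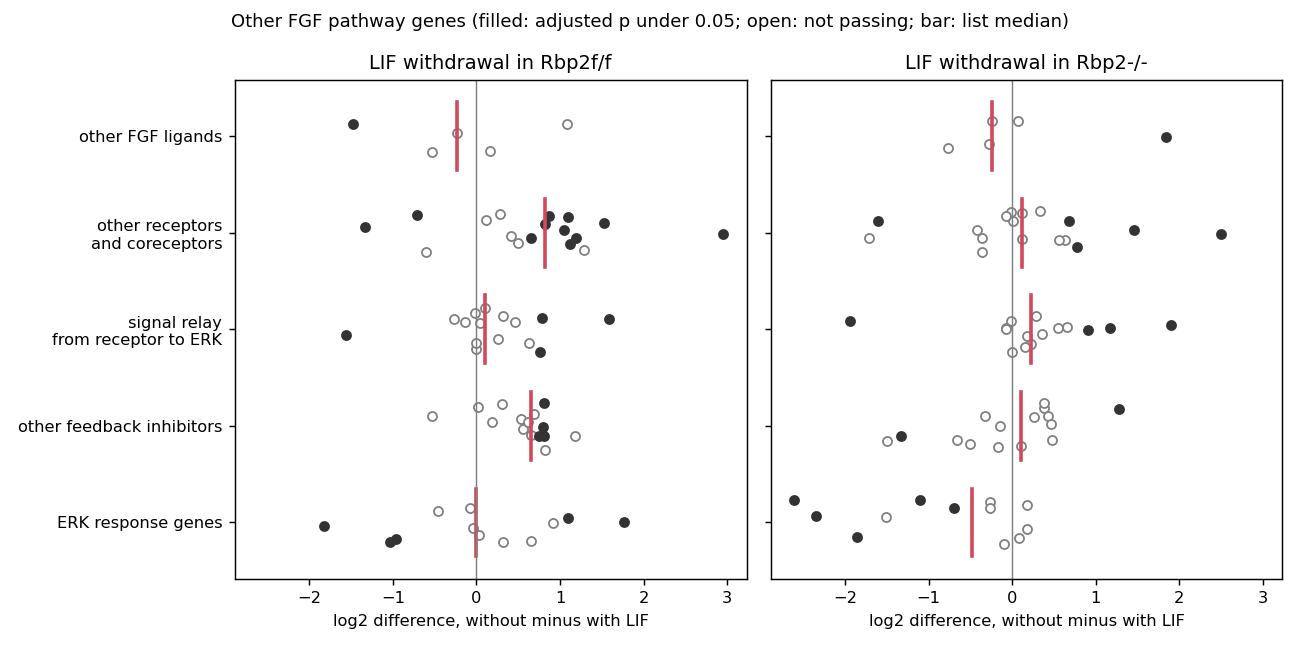
Log2 change on LIF withdrawal (horizontal axis) of the 64 tested pathway genes, by list, in each genotype; each point is a gene, and filled points passed at adjusted p under 0.05. Gpc3 stood highest in both genotypes, at 2.96 and 2.50, and Etv5 and Etv4 lowest, at -1.82 in Rbp2f/f and -2.61 in Rbp2-/-.

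Genes whose profile over the 8 arrays was closest to each member's were found among the 10915 other genes tested, by the root mean square difference of centred log2 values. This is a description over 8 arrays. For Fgf4 they were Pla2g1b (0.15), Trap1a (0.17) and Eras (0.21), against a root mean square of 1.64 for Fgf4 itself. For Fgf5 they were Prss8 (0.42), Cldn6 (0.44) and Kcnk1 (0.51), against 1.16. For Fgf8 they were Car2 (0.41), Rspo3 (0.45) and Rbmx (0.47), against 1.26. The profiles of Fgf5 and Fgf8 thus had less close neighbours than that of Fgf4. For Fgf15 they were Zfp711 (0.29), Has2 (0.37) and Reck (0.39), and for Fgfr1 they were Tecr (0.14), Smo (0.19) and Yaf2 (0.20). For Spry2 they were Svip (0.18), Tmem59l (0.20) and Foxp1 (0.22), and for Spry4 they were Mt2, Smagp and Folr1 (each 0.28). For Dusp6 they were Shb (0.20), Enc1 (0.24) and Mapkapk3 (0.24), and Fgfr2, whose means spanned under 1 on the log2 scale, was not matched. No member was among the 3 nearest genes of another.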

How the data were processed

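The authors deposited 1 linear intensity per probe set and array, made from cRNA labelled from 6 ug of total RNA per the labels' protocols. How probe sets were summarised, corrected for background and scaled is not given in the sources used. Gene names came from the platform annotation, in which 34958 probe sets had 1 symbol, 932 several and 9211 none, and only those with 1 were named. Intensities were quantile-normalised and transformed as log2(value + 16). Each gene was read by its brightest probe set, and the 10916 genes at or above the 40th percentile of gene means were tested.

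Contrasts between the 4 groups were fitted by limma (version 3.58.1, R 4.3.3; lmFit, eBayes with trend, 4 residual and 5.31 prior degrees of freedom). The 6 contrasts were withdrawal in each genotype, genotype in each medium and averaged, and the difference of withdrawal changes. Two-sided p-values were corrected per contrast (Benjamini-Hochberg), and calls were made at adjusted p under 0.05. The number of arrays limits the precision. The members and lists were chosen with earlier results of these data known. The 9 members were named throughout, and from each list up to 4 called genes per direction and genotype whose arrays did not overlap, from which examples are given. The 21 alternative settings changed normalization, pseudocount, filter, probe set summary, variance model, threshold, fit samples, replicate block or left out 1 array. The fit was first tested on simulated data, with known changes.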

Additional observations from a re-analysis of the deposited data

Results flagged for a closer look

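The brightest Fgfr2 probe set had changes of opposite sign in the 2 genotypes. On withdrawal of LIF its log2 change was -0.25 in Rbp2f/f and 0.63 in Rbp2-/-, and neither passed (limma, adjusted p = 0.47 and 0.11). The arrays of the 2 media did not overlap in either genotype. Of all genes 35.3% were so lower in Rbp2f/f and 28.9% so higher in Rbp2-/-. Put the other way, the genotype difference of this probe set was -0.48 with LIF and 0.40 without. The test of this difference gave 0.88 ± 0.34 (limma, unadjusted p = 0.027, adjusted p = 0.42), so it failed the correction. A second Fgfr2 probe set gave 0.60 for the same difference (limma, adjusted p = 0.68), with a change of 0.08 in Rbp2f/f. The dimmest, too dim to be tested, was higher without LIF on non-overlapping arrays in both genotypes.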

How the results depend on the processing

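The count of members called on withdrawal in Rbp2f/f, 5 as reported, was 3 with no filter, 3 without the variance trend and 2 at an adjusted p under 0.01, and ran from 2 to 5 when single arrays were left out. In Rbp2-/- the count of 4 was 2 with no filter and 2 at an adjusted p under 0.01, and ran from 2 to 5 with single arrays left out. With the replicate number as a block, 1 member passed for the genotype difference averaged over media, against 0 without the block. It was Fgf5 (adjusted p = 0.044). Same-numbered arrays deviated together at correlations from -0.07 to 0.27, with 3 of 6 pairs at 0.25 or above and 3 below 0, so the numbers were not taken to pair the samples.

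Signs turned only for differences that had not passed. With all probe sets averaged, the Spry4 difference between genotypes with LIF was 0.24. With single arrays left out, the genotype difference with LIF ran from -0.60 to 0.041 for Fgf4, -0.19 to 1.14 for Fgfr1, -0.86 to 0.13 for Spry2, -0.34 to 0.23 for Spry4 and -0.51 to 0.12 for Dusp6. Without LIF it ran from -0.16 to 0.093 for Spry2 and -1.35 to 0.38 for Fgf8. The withdrawal change in Rbp2f/f ran from -0.011 to 0.62 for Dusp6 and -0.065 to 1.48 for Fgf15, and in Rbp2-/- from -0.60 to 1.57 for Fgf5. The causes were not tested. With 2 arrays a group and several means near background, the data limit what can be said of Fgf5, Fgf8 and Fgf15.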
